A study of Mus musculus with 9 samples.

Results

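The genes described here encode subunits of the mitochondrial respiratory chain and of ATP synthase, measured in mouse CD8+ T cells after culture with a cytokine. They were taken by symbol: every gene whose symbol in the array annotation begins with Nduf, Uqcr, Cox4, Cox5, Cox6, Cox7, Cox8 or Atp5, and the genes Sdha, Sdhb, Sdhc, Sdhd and Cyc1. This gave 88 of the 17499 genes measured, read by 194 probes. By enzyme, 40 of them belong to complex I, 4 to complex II, 9 to complex III, 18 to complex IV and 17 to complex V. The prefix Nduf also took in 7 assembly factors of complex I, which help to build the enzyme but are not part of it. All 88 are nuclear genes, and the 13 subunits encoded by mitochondrial DNA were not analysed here.

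The respiratory chain sits in the inner mitochondrial membrane and passes electrons from NADH (complex I) and succinate (complex II) through ubiquinone, complex III and cytochrome c to oxygen (complex IV). Complexes I, III and IV pump protons as they do so, and ATP synthase (complex V) lets the protons flow back and makes ATP. Activated CD8+ T cells rely on glycolysis and on oxidative phosphorylation to differing degrees, and memory CD8+ T cells are known for their reliance on mitochondrial respiration, which culture with IL-15 is known to favour over culture with IL-2.

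CD8+ T cells were held for 4 days in 10 ng/ml of IL-2, of IL-15 or of IL-21, or without any of them, and all cultures were then restimulated for 4 h in the absence of cytokine. Each of 9 two-colour arrays set RNA of one cytokine culture against RNA of cells that had received no cytokine, with 3 biological replicates per cytokine. The labels name neither the mouse strain nor the restimulating agent, and the cells are bulk cultures. Values are ratios of cytokine over untreated RNA, taken as log2. That direction is likely and not settled, since the labels and the design text of the series disagree on the dyes of replicates 2 and 3, and a natural log was not excluded. A log2 ratio of 1 would be a doubling relative to untreated cells.

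Promoter windows of 4 genes are shown first. Cox6a1, Ndufb7 and Atp5e are 3 of the genes that passed with the replicate number as a block, in a fit given below. They did not pass in the main fit. The last gene, Cox8b, is a muscle isoform. The windows run from 250 bases before to 50 bases after the annotated start of transcription, from RefSeq on build GRCm38.p6. Capitals mark matches, on either strand, to the core motif of the factor NRF1 (GCGCA, any base, then GCGC), to an ETS family motif (CCGGAAG), which GABP recognises, or to TATAAA. NRF1 and GABP are known activators of nuclear genes for respiratory subunits. Cox6a1, a subunit of complex IV, lies at chr5:115348909-115349208 on the minus strand. Ndufb7, an accessory subunit of complex I, lies at chr8:83566508-83566807 on the plus strand. Atp5e, the epsilon subunit in the central stalk of ATP synthase, lies at chr2:174464052-174464351 on the minus strand. Cox8b, the heart and skeletal muscle form of a complex IV subunit, lies at chr7:140900397-140900696 on the minus strand.
Cox6a1: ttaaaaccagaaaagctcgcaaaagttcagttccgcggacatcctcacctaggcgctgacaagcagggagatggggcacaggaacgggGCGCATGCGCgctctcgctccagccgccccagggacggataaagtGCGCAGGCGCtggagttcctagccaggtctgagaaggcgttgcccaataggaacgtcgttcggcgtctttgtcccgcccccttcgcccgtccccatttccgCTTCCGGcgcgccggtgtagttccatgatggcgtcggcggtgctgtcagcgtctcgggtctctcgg
Ndufb7: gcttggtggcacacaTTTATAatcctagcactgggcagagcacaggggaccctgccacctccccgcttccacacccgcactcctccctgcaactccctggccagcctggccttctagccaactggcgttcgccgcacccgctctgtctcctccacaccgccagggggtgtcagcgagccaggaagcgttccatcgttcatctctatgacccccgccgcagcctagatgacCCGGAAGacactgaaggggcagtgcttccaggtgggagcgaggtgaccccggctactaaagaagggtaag
Atp5e: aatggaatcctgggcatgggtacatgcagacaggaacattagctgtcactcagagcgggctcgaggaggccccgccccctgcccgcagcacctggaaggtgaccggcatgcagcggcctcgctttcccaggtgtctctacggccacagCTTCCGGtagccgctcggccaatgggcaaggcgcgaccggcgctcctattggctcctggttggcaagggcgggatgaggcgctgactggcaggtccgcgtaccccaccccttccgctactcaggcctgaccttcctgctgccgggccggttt
Cox8b: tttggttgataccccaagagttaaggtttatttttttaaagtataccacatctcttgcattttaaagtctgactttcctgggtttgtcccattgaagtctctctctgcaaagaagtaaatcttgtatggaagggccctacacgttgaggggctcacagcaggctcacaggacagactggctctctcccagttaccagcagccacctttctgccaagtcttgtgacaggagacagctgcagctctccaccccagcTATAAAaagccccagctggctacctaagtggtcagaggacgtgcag

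The Cox6a1 window holds 2 NRF1 matches and 1 ETS match, while the Atp5e window holds 1 ETS match and the Cox8b window only a TATA match. Of the 88 genes, 72 had a window in the RefSeq table. An NRF1 match was present in 17 of these (23.6%), against 5.19% of the windows of all genes. An ETS match was present in 18 (25%), against 9.93%, and a match to the YY1 motif AANATGGCG in 10 (13.9%), against 2.76%. Genes with the cyclic AMP response element TGACGTCA numbered 3 (4.17%, against 2.03%), and those with TATAAA numbered 8 (11.1%, against 15.7%). Atp5h, Atp5k, Cox6a1 and Sdhd held both an NRF1 and an ETS match, and no such matches overlapped. The genes with an NRF1 match had a median log2 ratio of 0.29 with IL-2, and those without had 0.35, while with IL-15 the order was the other way, at 0.30 and 0.26. For ETS the medians were 0.41 with and 0.34 without a match with IL-2, and 0.32 and 0.26 with IL-15. The matches describe letters in these windows and not binding.

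Across the arrays, the respiratory genes lay above the untreated level in most cultures with IL-2 or IL-15 and spread around it with IL-21. With IL-2 the medians over the 88 genes were 0.50, 0.40 and 0.05 in replicates 1 to 3, where the medians over all genes were -0.02, 0.02 and 0.13. With IL-15 they were 0.70, 0.20 and 0.05, and with IL-21 they were 0.31, 0.01 and -0.28. Replicate 1 was the highest and replicate 3 the lowest with each cytokine, and in replicate 3 of IL-2 the respiratory genes lay below the median of all genes. Of the 88 genes, 82, 76 and 51 were above 0 in the IL-2 replicates, 85, 68 and 47 in the IL-15 replicates, and 73, 46 and 12 in the IL-21 replicates. Over all genes, between 44.5% and 59.8% were above 0 on each array.

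**Figure D1:**
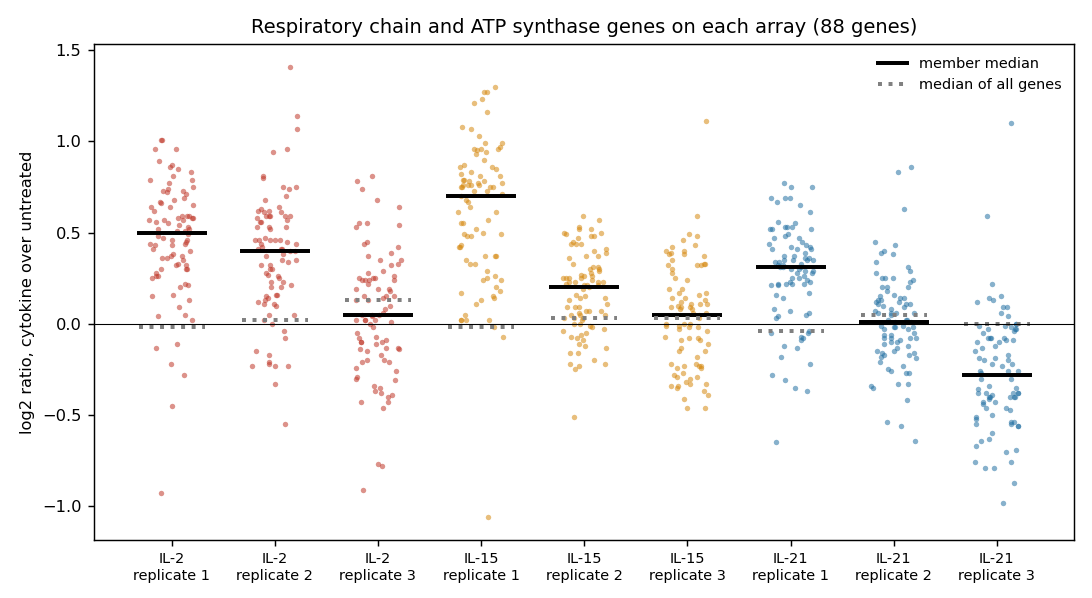
Each point is the log2 ratio of cytokine over untreated RNA (y axis) of 1 of the 88 genes on 1 of the 9 arrays (x axis), with the median of these genes as a solid line and that of all genes as a dotted line. Within each replicate number the IL-21 array has the lowest median of the respiratory genes, at 0.31, 0.01 and -0.28.

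The replicates differ in more than the cultures. The design text puts cytokine RNA in Cy5 in replicate 1 and in Cy3 in replicates 2 and 3. The median of the respiratory genes minus that of all genes was 0.35 to 0.73 on the 3 arrays of the first kind and -0.28 to 0.38 on the 6 of the second, so dye orientation and replicate 1 cannot be told apart. The number of arrays limits the precision. IL-2 replicate 3 had the widest spread, where 11.49% of all genes had a log2 ratio over 1 or under -1, against 3.02% to 5.65% on the other arrays. Because whole cultures were measured, fewer cells of a kind and less RNA per cell cannot be told apart. The values are ratios without intensities, so levels could not be compared between genes, the labelled cell type could not be checked by marker levels, and probes close to background could not be set apart.

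The first comparison asks what culture with IL-2, which drives the growth of activated T cells, does to these genes. With IL-2 the 88 genes had a median log2 ratio of 0.30, against 0.05 over all genes. Of the 88 genes 76 lay above 0, as did 10358 of all 17499 genes. ATP synthase had the highest median of the 5 complexes, 0.40, followed by complexes I and II at 0.32, complex IV at 0.26 and complex III at 0.23. With the sign of replicates 2 and 3 turned, these medians were 0.06 for ATP synthase and -0.01 to 0.02 for the others. Single genes ran from -0.32 for Ndufb4 to 0.83 for Cox6a1. With limma 0 of the 88 genes passed an adjusted p of 0.05 (Benjamini-Hochberg over all genes), where 0.8% of all genes passed in either direction. The lowest adjusted p among them was 0.0801, for Ndufv3. At an unadjusted p under 0.05, 28 (31.8%) were higher, against 6.77% of all genes, and 0 were lower, against 2.05%. In all 3 replicates, 46 (52.3%) were above 0, against 15.3% of all genes. With the replicate number as a block, used because same-numbered arrays deviated together, 4 genes passed in limma, where 1.96% of all genes did: Cox6a1 (adjusted p 0.0224), Ndufc2 (0.0352), Cox7c (0.0379) and Ndufb7 (0.045). The blocked p-values leave out variation that the 3 arrays of a replicate share. With the replicate number as a random effect instead, at an estimated correlation of 0.432, 0 of the 88 genes passed in limma, where 0.623% of all genes did, and the adjusted p of these 4 was 0.101 for Cox6a1, 0.298 for Ndufc2, 0.242 for Cox7c and 0.264 for Ndufb7. The count of 28 was 48 (54.5%) with the block, against 11.9% of all genes. It was 13 without replicate 1, 3 without replicate 2 and 35 without replicate 3, and it was 2 with the sign of replicates 2 and 3 turned.

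The second comparison asks the same of IL-15, a cytokine that supports memory CD8+ T cells. The 88 genes had a median log2 ratio of 0.27, against 0.00 over all genes. Of the 88 genes 81 lay above 0, as did 8823 of all 17499 genes. ATP synthase again had the highest median, 0.37, while complex III had 0.26, complex I 0.25, complex II 0.20 and complex IV 0.16. With the sign of replicates 2 and 3 turned ATP synthase was no longer the highest, at 0.19, where complexes II and III had 0.22, complex IV 0.12 and complex I 0.09. In limma 0 genes passed after adjustment, where 0.126% of all genes passed, and the lowest adjusted p was 0.0991, for Atp5e. At an unadjusted p under 0.05, 21 (23.9%) were higher, against 5.1% of all genes, and 0 were lower, against 2.15%. In all 3 replicates, 40 (45.5%) were above 0, against 15.1%. With the replicate block 3 genes passed in limma, where 0.697% of all genes did: Atp5e (adjusted p 0.0376), Ndufa12 (0.0442) and Cox6a1 (0.0492). With the replicate as a random effect 0 passed in limma, where 0.166% of all genes did, and the adjusted p of these 3 was 0.102, 0.339 and 0.235. The count of 21 was 43 (48.9%) with the block, against 9.43% of all genes. It was 5 without replicate 1, 9 without replicate 2 and 28 without replicate 3, and 3 with the sign of replicates 2 and 3 turned.

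The third comparison concerns IL-21, which signals through STAT3 and is known to keep CD8+ T cells less differentiated. The 88 genes had a median log2 ratio of 0.01, against 0.00 over all genes, and the median was 0.21 with the sign of replicates 2 and 3 turned. With the signs as deposited 45 of the 88 lay above 0, as did 8865 of all 17499 genes. In limma 0 genes passed, where 0% of all genes passed, and the lowest adjusted p was 0.825. At an unadjusted p under 0.05, Ndufa3 was higher and Cox8c lower, where 2.62% and 3.43% of all genes were. In all 3 replicates 7 genes (7.95%) were above 0, against 11.5% of all genes, and 5 (5.68%) were below, against 12.4%. The 5 below 0 were Cox7a2, Cox8c and the complex I assembly factors Ndufaf4, Ndufaf6 and Ndufaf7.

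**Figure D2:**
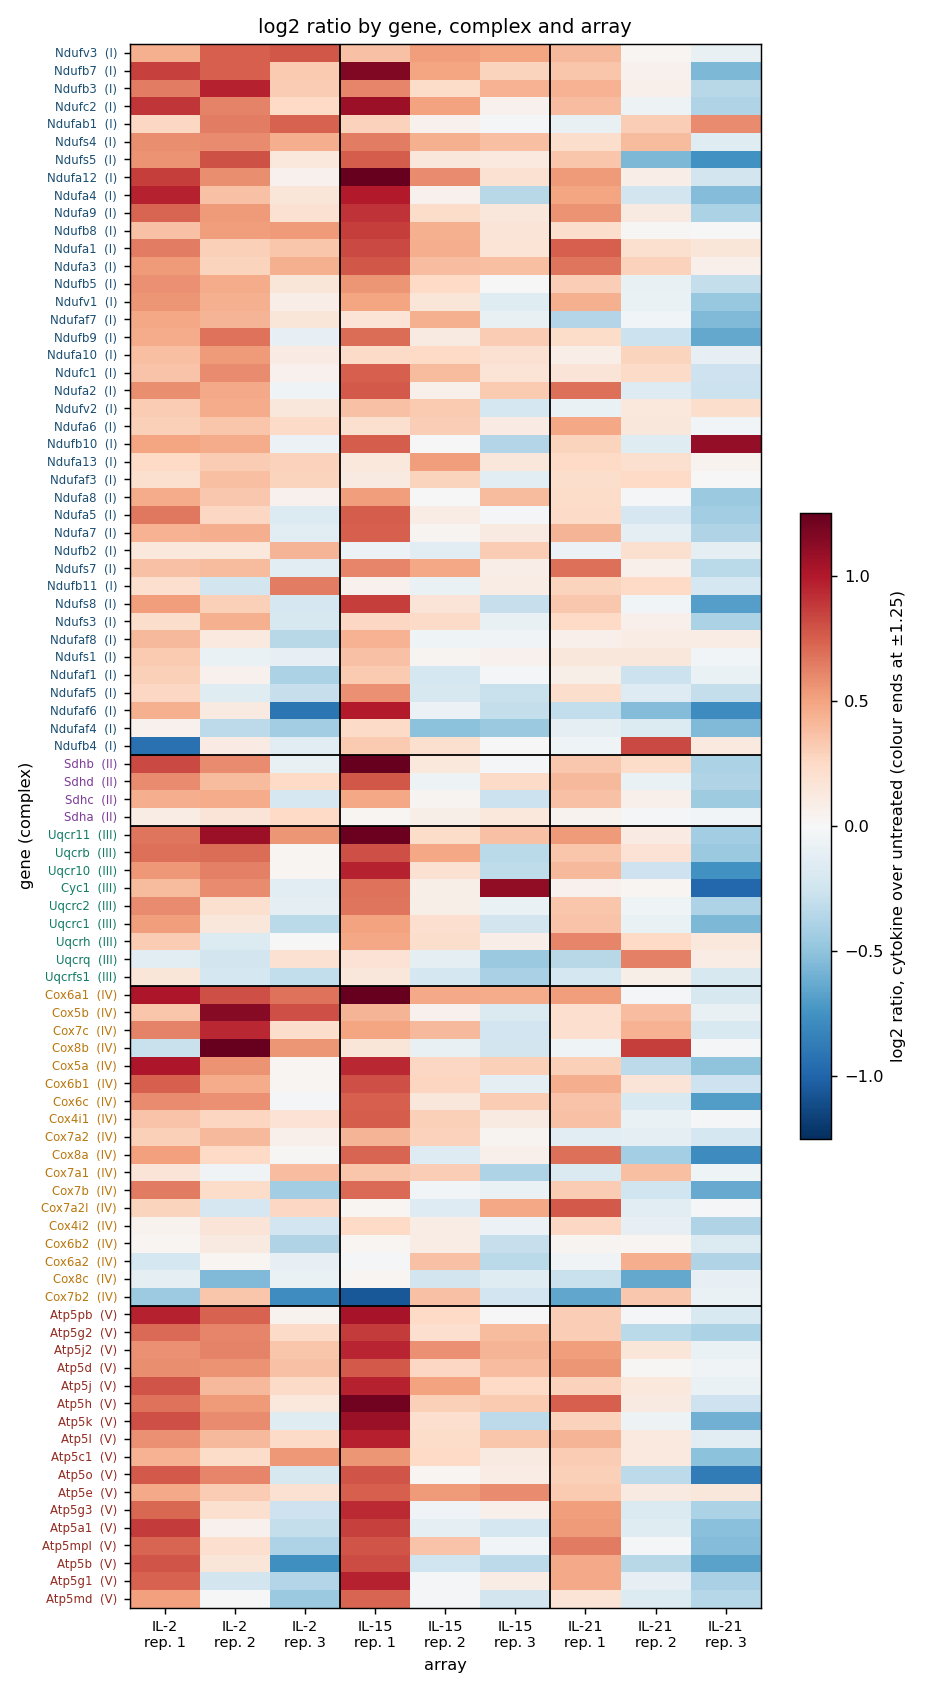
Log2 ratio of cytokine over untreated RNA (colour, red above 0 and blue below) of each of the 88 genes (rows, grouped by complex) on each of the 9 arrays (columns, grouped by cytokine). Red fills most rows in the IL-2 and IL-15 columns of replicate 1, and blue fills most rows in IL-21 replicate 3, where 12 of the 88 genes lay above 0.

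Complex I takes electrons from NADH. Its 6 core subunits, which carry the flavin and the iron-sulfur clusters, had a median log2 ratio of 0.21 with IL-2 and 0.16 with IL-15, and its 27 accessory subunits had 0.39 and 0.34. The 7 assembly factors had -0.02 and 0.09. Ndufs1, the largest of the iron-sulfur subunits, gave 0.33, -0.08 and -0.10 with IL-2, 0.37, 0.03 and 0.05 with IL-15, and 0.14, 0.14 and -0.03 with IL-21. Ndufv1, which binds NADH, gave 0.55, 0.44 and 0.08 with IL-2, 0.49, 0.15 and -0.15 with IL-15, and 0.44, -0.08 and -0.47 with IL-21. Both core genes thus had ratios of mixed sign in some cytokine, and their cytokine groups overlapped.

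Among the accessory subunits of complex I, Ndufv3 gave 0.44, 0.75 and 0.78 with IL-2, 0.37, 0.52 and 0.49 with IL-15, and 0.41, 0.02 and -0.09 with IL-21. All 3 IL-2 values lay above all 3 IL-21 values. With IL-2 its mean was 0.66 ± 0.13 (SE, n = 3), a 1.58-fold ratio, with a limma adjusted p of 0.0801 and 0.0631 with the block. Ndufv3 had 2 probes, which gave 0.16 and 1.15 with IL-2, and 1 of them passed when probes were fitted alone. Ndufb7, in the membrane arm, gave 0.85, 0.75 and 0.33 with IL-2, 1.16, 0.49 and 0.28 with IL-15, and 0.35, 0.05 and -0.56 with IL-21. Its IL-2 mean was 0.64 ± 0.22 (SE, n = 3), 1.56-fold, with a limma adjusted p of 0.37 without and 0.045 with the replicate block. The IL-2 and IL-15 values were all above 0, yet the lowest of each fell below the highest IL-21 value.

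Ndufc2, also in the membrane arm, gave 0.89, 0.62 and 0.25 with IL-2, 1.07, 0.50 and 0.05 with IL-15, and 0.39, -0.06 and -0.38 with IL-21. Its limma adjusted p for IL-2 was 0.434, and 0.0352 with the block, at 0.59 ± 0.22 (SE, n = 3). Ndufa12 gave 0.86, 0.58 and 0.05 with IL-2, 1.27, 0.59 and 0.19 with IL-15, and 0.53, 0.08 and -0.23 with IL-21. For IL-15 it stood at 0.68 ± 0.24 (SE, n = 3), 1.61-fold, with a limma adjusted p of 0.474 and 0.0442 with the block. In both genes replicate 1 was the highest with each cytokine, and the cytokine groups overlapped. Ndufab1, the mitochondrial acyl carrier protein, which also serves mitochondrial fatty acid synthesis, ran the other way over the replicates with IL-2 (0.26, 0.64 and 0.74) and IL-21 (-0.09, 0.31 and 0.59). Ndufb4 was the lowest member with IL-2, at -0.93, 0.10 and -0.13, where 1 array of 3 set the mean of -0.32 ± 0.22 (SE, n = 3; limma adjusted p 0.829).

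**Figure D3:**
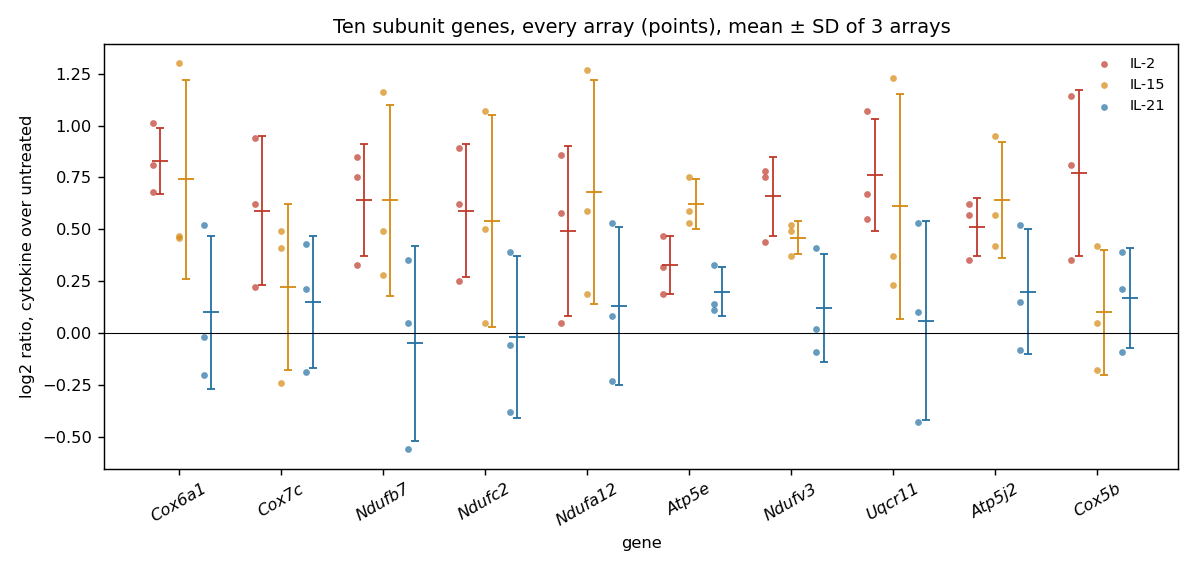
Log2 ratio of cytokine over untreated RNA (y axis) of 10 respiratory genes (x axis) on every array (points), with the mean and SD of the 3 arrays of each cytokine (lines). In Cox6a1, Ndufv3 and Uqcr11 every IL-2 array lies above every IL-21 array, and in Atp5e every IL-15 array lies above every IL-21 array.

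Succinate dehydrogenase, complex II, oxidises succinate and belongs to the citric acid cycle as well as to the chain. Its flavoprotein gene Sdha gave 0.09, 0.16 and 0.25 with IL-2, 0.02, 0.07 and 0.13 with IL-15, and 0.04, -0.01 and -0.03 with IL-21. These means over 77 probes hid a wide spread of single probes, from -0.61 to 1.44 with IL-2, of which 58 lay above 0. The iron-sulfur subunit gene Sdhb gave 0.83, 0.59 and -0.09 with IL-2, 1.27, 0.13 and -0.02 with IL-15, and 0.34, 0.23 and -0.40 with IL-21. The membrane anchor Sdhd gave 0.59, 0.40 and 0.25 with IL-2, 0.78, -0.06 and 0.24 with IL-15, and 0.41, -0.08 and -0.38 with IL-21. Sdhb, read by 2 probes, and Sdhd, read by 1, thus moved over a wider range than Sdha, a mean of 77 probes. By these means, only Sdha had IL-2 and IL-21 arrays that did not overlap among these 3. By the median over its probes, Sdha stood at 0.11 both in IL-2 replicate 2 and in IL-21 replicate 1. At an unadjusted p under 0.05, 0 of the 4 genes differed from untreated cells with any cytokine in limma.

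Complex III passes electrons from ubiquinol to cytochrome c. Of its catalytic subunits, the Rieske protein gene Uqcrfs1 gave 0.15, -0.22 and -0.31 with IL-2, 0.14, -0.22 and -0.41 with IL-15, and -0.22, 0.07 and -0.20 with IL-21. Cyc1, which encodes cytochrome c1, gave 0.40, 0.59 and -0.14 with IL-2, 0.68, 0.07 and 1.11 with IL-15, and 0.05, 0.02 and -0.98 with IL-21. All IL-15 values of Cyc1 lay above all IL-21 values, but replicate 3 alone differed by -2.09 between IL-21 and IL-15, and the mean difference was -0.92 ± 0.37 (SE; limma adjusted p 0.794). The small subunit gene Uqcr11 gave 0.67, 1.07 and 0.55 with IL-2, 1.23, 0.23 and 0.37 with IL-15, and 0.53, 0.10 and -0.43 with IL-21. With IL-2 it stood at 0.76 ± 0.23 (SE, n = 3), 1.70-fold, with a limma adjusted p of 0.287. Uqcrh, the hinge subunit, was the only member with a higher ratio with IL-21 than with either other cytokine in all 3 replicates, at 0.61, 0.25 and 0.13 with IL-21 against 0.32, -0.17 and 0.00 with IL-2 and 0.48, 0.22 and 0.08 with IL-15. Its difference between IL-21 and IL-2 was 0.28 ± 0.21 (SE; limma adjusted p 0.999).

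Complex IV, cytochrome c oxidase, reduces oxygen. It has subunits found in most tissues and isoforms restricted to muscle, lung or testis. Of all 17499 genes, 10358 lay above 0 with IL-2 and 8823 with IL-15. The 11 common subunits had a median log2 ratio of 0.38 with IL-2 and 0.24 with IL-15, and all 11 lay above 0 with both. The 7 tissue-restricted isoforms had medians of -0.08 and -0.06, with 2 and 3 above 0. No test of this difference between subunit groups was made.

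Cox6a1, the form of subunit 6a outside striated muscle, gave 1.01, 0.81 and 0.68 with IL-2, 1.30, 0.47 and 0.46 with IL-15, and 0.52, -0.02 and -0.20 with IL-21. Every IL-2 array lay above every IL-21 array, and the lowest IL-15 values lay below the highest IL-21 value. With IL-2 the mean was 0.83 ± 0.20 (SE, n = 3), 1.78-fold, with a limma adjusted p of 0.134 without and 0.0224 with the block. With IL-15 it was 0.74 ± 0.20 (SE, n = 3), 1.67-fold, with adjusted p of 0.292 without and 0.0492 with the block. Its 2 probes agreed, at 0.75 and 0.91 with IL-2. Its muscle isoform Cox6a2 gave -0.22, 0.02 and -0.10 with IL-2, and -0.02, 0.37 and -0.34 with IL-15.

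Cox7c, a small common subunit, gave 0.62, 0.94 and 0.22 with IL-2, 0.49, 0.41 and -0.24 with IL-15, and 0.21, 0.43 and -0.19 with IL-21. It stood at 0.59 ± 0.20 (SE, n = 3) with IL-2, 1.51-fold, with a limma adjusted p of 0.359 without and 0.0379 with the block. Cox5b gave 0.35, 1.14 and 0.81 with IL-2, 0.42, 0.05 and -0.18 with IL-15, and 0.21, 0.39 and -0.09 with IL-21. Its IL-2 mean was 0.77 ± 0.18 (SE, n = 3; limma adjusted p 0.125), and it had the lowest p of the 88 genes between IL-15 and IL-2. Cox5b and Cox7c were both highest in replicate 2 of IL-2, and their groups overlapped. Cox4i1, the common form of subunit 4, gave 0.36, 0.27 and 0.18 with IL-2 and 0.76, 0.30 and 0.11 with IL-15, and its lung isoform Cox4i2 gave 0.04, 0.16 and -0.24 with IL-2 and 0.25, 0.09 and -0.07 with IL-15.

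Of the remaining restricted isoforms, Cox8b, whose promoter window holds no NRF1 or ETS match, gave -0.28, 1.41 and 0.55 with IL-2, values of opposite sign behind a mean of 0.56 ± 0.29 (SE, n = 3; limma adjusted p 0.683). The testis form Cox8c gave -0.11, -0.55 and -0.08 with IL-2 and -0.28, -0.64 and -0.10 with IL-21, and it was the only member below 0 in all 3 IL-2 replicates, where 9.06% of all genes were. Cox7a2l, a factor that joins complexes III and IV into supercomplexes, gave 0.28, -0.21 and 0.26 with IL-2, with no shared sign. Ndufa4, which keeps a complex I name although in human cells its protein is known as a subunit of complex IV, gave 0.96, 0.37 and 0.15 with IL-2, 0.99, 0.05 and -0.35 with IL-15, and 0.49, -0.23 and -0.54 with IL-21.

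**Figure D4:**
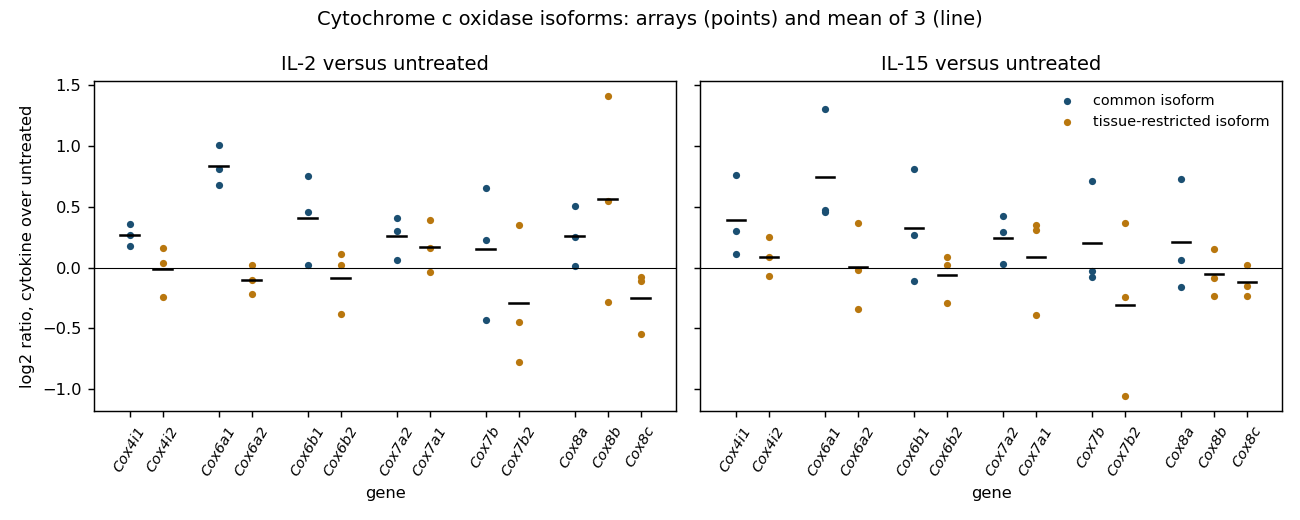
Log2 ratio of cytokine over untreated RNA (y axis) of common (blue) and tissue-restricted (orange) isoforms of complex IV subunits (x axis) on each array (points), with the mean of 3 arrays as a line, for IL-2 and IL-15. Subunit 6a is the only one whose common isoform, Cox6a1, has all points above those of its restricted isoform, Cox6a2, in both panels.

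ATP synthase couples the flow of protons to the making of ATP. All 17 of its genes lay above 0 on average with IL-2 and with IL-15, where 10358 and 8823 of all 17499 genes did. With each cytokine 9 lay above 0 in all 3 replicates, against 15.3% (IL-2) and 15.1% (IL-15) of all genes. By part of the enzyme, the 4 genes of the peripheral stalk had medians of 0.46 with IL-2 and 0.50 with IL-15, the 5 genes of the F1 head and central stalk 0.33 and 0.30, the 3 genes of the proton-carrying c ring 0.22 and 0.35, and the 5 other membrane subunits 0.41 and 0.37. With IL-21 these medians were 0.07, -0.03, -0.02 and 0.03.

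The catalytic beta subunit gene Atp5b gave 0.79, 0.15 and -0.77 with IL-2, 0.82, -0.25 and -0.33 with IL-15, and 0.47, -0.35 and -0.67 with IL-21. It was above 0 in replicate 1 and mostly below 0 in the others, and its groups overlapped throughout. Atp5e, whose protein sits in the rotating central stalk, gave 0.47, 0.32 and 0.19 with IL-2, 0.75, 0.53 and 0.59 with IL-15, and 0.33, 0.11 and 0.14 with IL-21. Its IL-15 arrays were above all IL-2 and all IL-21 arrays, and it was the only member to lie wholly above IL-2 with IL-15, where 1.54% of all genes did. With IL-15 the mean was 0.62 ± 0.12 (SE, n = 3), 1.54-fold, with a limma adjusted p of 0.0991 without and 0.0376 with the block. Between IL-21 and IL-15 it differed by -0.43 ± 0.16 (SE), with a limma adjusted p of 0.769.

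Atp5j2, which encodes the f subunit in the membrane, gave 0.57, 0.62 and 0.35 with IL-2, 0.95, 0.57 and 0.42 with IL-15, and 0.52, 0.15 and -0.08 with IL-21. With IL-15 it stood at 0.64 ± 0.15 (SE, n = 3; limma adjusted p 0.219). The c ring is encoded by Atp5g1, Atp5g2 and Atp5g3, which are known to give the same mature protein. Atp5g2 gave 0.71, 0.61 and 0.24 with IL-2 and 0.31, -0.34 and -0.40 with IL-21. Its difference between IL-21 and IL-2 was -0.66 ± 0.26 (SE; limma adjusted p 0.73), with replicates at -0.40, -0.95 and -0.64. Atp5o, which encodes the oligomycin sensitivity-conferring protein at the top of the stalk, gave 0.77, 0.61 and -0.20 with IL-2 and 0.30, -0.33 and -0.87 with IL-21.

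The remaining comparisons set the cytokines against each other. The differences were taken within a replicate number. With IL-21 the respiratory genes had lower ratios than with IL-2 in all 3 replicates: the medians of the differences over the 88 genes were -0.20, -0.36 and -0.28, where those over all genes were -0.04, -0.01 and -0.11. Over the 3 replicates the median was -0.27, against -0.05. With IL-21 11 of the 88 genes were higher, as were 7437 of all 17499 genes. In limma 0 genes passed, where 0.08% of all genes passed in either direction, and the lowest adjusted p was 0.51, for Ndufaf7. At an unadjusted p under 0.05, 8 genes (9.09%) were lower, against 4.46% of all genes: Atp5g2, Cox5b, Cox6a1, Cox7a2, Ndufaf7, Ndufb3, Ndufs5 and Ndufv3. With the replicate block 29 genes (33%) were lower at that p, against 9.21% of all genes. Over both directions the count of 8 was 11 without replicate 1, 1 without replicate 2 and 2 without replicate 3, and 0 with the sign of replicates 2 and 3 turned. In all 3 replicates, 54 genes (61.4%) were lower, against 23.2% of all genes. With that sign turned 2 genes (2.27%) were, against 9.54%. The IL-21 arrays lay wholly below the IL-2 arrays in 8 genes (9.09%), against 6.53% of all genes.

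Against IL-15, the medians of the differences were -0.37, -0.17 and -0.32 in replicates 1 to 3, where those over all genes were -0.05, 0.02 and 0.00. In limma 0 genes passed, where 0.0171% of all genes passed. At an unadjusted p under 0.05, Atp5e, Atp5g2, Cyc1 and Ndufaf7 (4.55%) were lower, against 3.61% of all genes, and 0 were higher, against 2.07%. With the replicate block 27 genes (30.7%) were lower at that p, against 7.58% of all genes. The count of 4 was 5 without replicate 1, 1 without replicate 2 or 3, and 1 with the sign of replicates 2 and 3 turned. In all 3 replicates 56 genes (63.6%) were lower with IL-21, against 20.3% of all genes, among them all 17 genes of ATP synthase, and only Uqcrh was higher, against 16.4%. With the sign turned 9 genes (10.2%) were lower, against 15.3%. The IL-21 arrays lay wholly below the IL-15 arrays in 4 genes (4.55%), near the 6.24% of all genes. The comparisons with IL-2 and IL-15 share the IL-21 arrays and are not independent.

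Within a replicate, IL-21 gave the lowest ratio of the 3 cytokines in 65, 66 and 67 of the 88 genes, where it did so in 45.2%, 35.3% and 36.2% of all genes. In 44 genes (50%) it was the lowest in every replicate, against 12% of all genes. With the sign of replicates 2 and 3 turned it was the lowest in 65, 11 and 8 genes, and in every replicate in 1 (1.14%), against 3.4% of all genes, so this order rests on the direction of the ratio in those replicates. By complex, the medians of the IL-21 minus IL-2 difference were -0.27 for complex I, -0.31 for complex II, -0.26 for complex III, -0.29 for complex IV and -0.27 for ATP synthase. The common subunits of complex IV had -0.43 and the accessory subunits of complex I -0.37, while the assembly factors of complex I had -0.08 and the restricted isoforms of complex IV -0.06. Ndufs5, an accessory subunit of complex I, had the largest single difference, -0.82 ± 0.33 (SE; limma adjusted p 0.752), from replicates at -0.21, -1.37 and -0.89. Ndufb7 differed by -0.49, -0.71 and -0.90, and Cox6a1 by -0.49, -0.83 and -0.88.

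**Figure D5:**
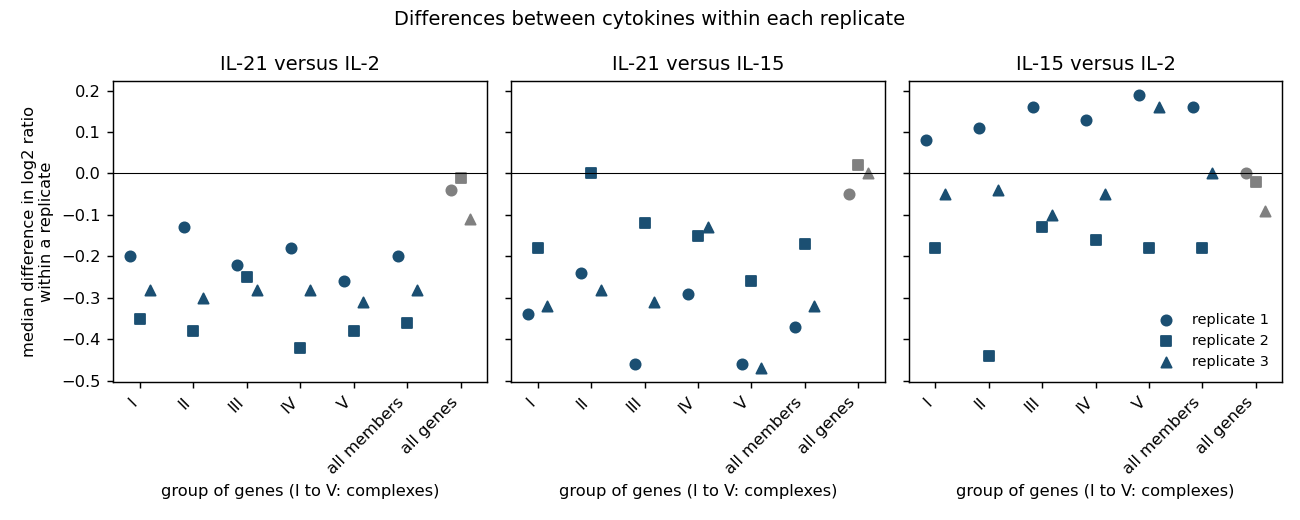
Median difference in log2 ratio between 2 cytokines within a replicate (y axis) for complexes I to V, for all 88 genes and for all genes measured (x axis), with a symbol for each of the 3 replicates. With the signs as deposited, every complex lies below 0 in each replicate for IL-21 minus IL-2, with the 88 genes at -0.20, -0.36 and -0.28, while for IL-15 minus IL-2 the replicates fall on both sides of 0.

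IL-15 and IL-2 gave close medians: the median difference of the 88 genes was -0.01, with replicates at 0.16, -0.18 and 0.00, against -0.04 over all genes. In limma 0 genes passed, where 0% of all genes passed, and at an unadjusted p under 0.05 only Cox5b was lower with IL-15, with a difference of -0.67 on the log2 scale, where 0.943% of all genes were lower. Its 3 probes disagreed, at -1.77, -0.25 and 0.02. In all 3 replicates 9 genes (10.2%) were higher with IL-15, against 9.72% of all genes, and 8 (9.09%) were lower, against 15.4%. In 0 genes did the IL-15 arrays lie wholly below the IL-2 arrays, against 2.87% of all genes. A p that misses the threshold does not show that IL-15 and IL-2 act alike on these genes.

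Genes that work with the chain were taken from lists. In limma 0 of their genes passed after adjustment in the 6 comparisons. At an unadjusted p under 0.05, 6 of the 86 measured lay above 0 with IL-2 (6.98%, against 6.77% of all genes) and 3 lay below (3.49%, against 2.05%). With IL-15, 9 lay above 0 at that p (10.5%, against 5.1% of all genes) and 1 lay below (1.16%, against 2.15%). The 7 measured genes of ATP and phosphate transport and ATP synthase control had a median log2 ratio of 0.43 with IL-2 and 0.25 with IL-15. Among them Atpif1, the inhibitor that blocks ATP hydrolysis by ATP synthase, gave 0.97, 1.02 and 0.96 with IL-2, 1.10, 0.63 and 0.07 with IL-15, and 0.23, -0.13 and -0.62 with IL-21. All 3 IL-2 values lay above all IL-21 values. Its IL-2 mean was 0.99 ± 0.21 (SE, n = 3), with a limma adjusted p of 0.0887 without and 0.0294 with the block, and 0.0902 with the replicate as a random effect. IL-21 minus IL-2 was -1.16 ± 0.30 (SE), with a limma adjusted p of 0.298, 0.0835 with the block and 0.047 with the random effect. Vdac1, the channel of the outer mitochondrial membrane, stood at 0.75 ± 0.20 with IL-2 (SE, n = 3), with a limma adjusted p of 0.185 without and 0.0399 with the block, and 0.153 with the random effect. The phosphate carrier Slc25a3 ran the other way, at -0.28, -0.51 and -0.66 with IL-2.

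The 32 measured assembly factors outside the Nduf prefix had medians of 0.13 with IL-2, 0.09 with IL-15 and 0.00 with IL-21. The 18 measured genes of the citric acid cycle and pyruvate entry had 0.17, 0.06 and -0.04. Citrate synthase, Cs, stood at 0.66 ± 0.20 with IL-2 (SE, n = 3; limma adjusted p 0.282), and Idh2 at -0.74 ± 0.18 with IL-15 (SE, n = 3; limma adjusted p 0.219). The 11 measured genes of cytochrome c and ubiquinone synthesis had 0.03, 0.06 and -0.07, with the hydroxylase gene Coq7 at 0.70 ± 0.25 with IL-2 (SE, n = 3; limma adjusted p 0.401). The 18 regulators of mitochondrial gene expression had -0.06, -0.01 and -0.13. Among the regulators Pprc1, a coactivator of NRF1, gave 0.01, -0.50 and -1.12 with IL-2, and Nrf1 itself gave 0.13, 0.13 and -0.42. The regulators as a list had medians of 0.13, -0.05 and -0.19 in the 3 IL-2 replicates. On average 6 of the 18 genes lay above 0 with IL-2, where 10358 of all 17499 genes did.

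Markers of the cells a culture could hold were read as ratios. Of 8 T cell identity genes 6 were measured, with a median of -0.02 with IL-2, 0.12 with IL-15 and 0.07 with IL-21, and Cd8a gave -0.20, 0.22 and 0.08 in that order. The other marker lists had medians of 0.05, 0.12 and -0.05 (CD4 T cell, 4 genes), -0.03, -0.13 and 0.10 (B cell, 5), 0.13, -0.23 and 0.16 (NK cell, 4), -0.11, -0.24 and 0.02 (myeloid and dendritic cell, 6) and 0.01, -0.15 and 0.19 (erythroid, 4). In limma 0 of these marker genes passed after adjustment, and at an unadjusted p under 0.05 with IL-2 only Cd2, a T cell gene, was higher, at 0.44 ± 0.16 (SE, n = 3). In the difference of IL-21 minus IL-15, where the respiratory genes had a median of -0.30, all 4 NK cell markers were higher, with a median of 0.51, and so were all 6 myeloid and dendritic cell markers, with a median of 0.24. The NK cell receptor gene Klre1 differed by 0.62 ± 0.18 (SE, with a limma adjusted p of 0.511), the only one of these 10 at an unadjusted p under 0.05. For the same difference the erythroid markers had a median of 0.32 (3 of 4 higher) and the B cell markers 0.07 (4 of 5). The T cell identity genes had -0.03 (3 of 6 higher) and the CD4 T cell markers -0.17 (1 of 4). Of all 17499 genes, 8641 were higher. The dendritic cell gene Flt3 gave -0.96, 6.38 and 1.00 with IL-21, so that 1 array set its mean of 2.14. For IL-21 minus IL-2 the NK cell markers had a median of 0.23, with 3 of 4 higher, and the myeloid markers 0.05, with 3 of 6 higher. The part that other cells play in the respiratory gene values was not tested.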

How the data were processed

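Per the labels' protocols, total RNA was extracted with Trizol and amplified with amino allyl reagents before dye coupling. The authors' deposited table gives 36547 probes, each with 1 value per array. These deposited values, which the authors made from the 2 channels of each array, have both signs around 0, from -8.01 to 8.78, and were used as log2 ratios as they stood. How arrays were scanned, background-corrected and normalized, and to which log base, is not given in the sources used here.

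Ratios were taken as deposited for all arrays. The gene-wise difference of IL-21 minus IL-2 had correlations of 0.162 to 0.258 over genes among the 3 replicates. For IL-21 minus IL-15 they were 0.173 to 0.226, and for IL-15 minus IL-2 only -0.028 to 0.057. These correlations bear on whether arrays run the same way and not on which channel is on top. If that order were reversed, each sign here would turn.

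Probes were named through the platform annotation. Exactly 1 symbol was listed for 26926 probes, several for 203, and 9418 were unnamed. After 39 control probes were left out, probes were averaged per gene and array, which gave 17499 genes.

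limma 3.58.1 in R 4.3.3 fitted 1 coefficient per cytokine over all 9 arrays (lmFit, contrasts.fit, eBayes). P-values were two-sided, with Benjamini-Hochberg adjustment across the 17499 genes and a threshold of 0.05. The fit was tested on simulated data. In further fits the replicate number was a fixed block or a random effect (duplicateCorrelation). The labels share these numbers between cytokines, and the deviations of same-numbered arrays from their cytokine means correlated at 0.152 to 0.647 in all 9 pairs. The ratios themselves correlated over all genes at 0.158 to 0.68 between same-numbered arrays of different cytokines. Between replicates of the same cytokine they correlated at only -0.262 to 0.268. Replicates are biological by their labels, with no statement on shared animals.

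The genes and lists were chosen with earlier results of these data known. The members named are those past the threshold with or without the block, the 2 highest and lowest per complex with the same sign in all replicates, the 3 with the lowest p per comparison, and fixed catalytic subunits and isoforms, which made 47 genes. Others were named after their values were seen. Alternatives covered normalization, centring, block, dye term, sign, probe summary, membership, moderation and omitted replicates. Motif matches were sought on both strands of RefSeq windows.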

Additional observations from a re-analysis of the deposited data

Results flagged for a closer look

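In 2 genes every array lay on one side of 0 with one cytokine and every array on the other side with another. The share of all genes that did so is not given here. The next shares use the signs as deposited and leave aside on which side of 0 an array lay. They were not computed with the sign of replicates 2 and 3 turned. IL-21 arrays lay wholly below IL-2 arrays in 9.09% of the 88 genes, against 6.53% of all genes. They lay wholly below IL-15 arrays in 4.55%, against 6.24%. Cox7a2, a common subunit of complex IV, gave 0.30, 0.41 and 0.06 with IL-2, 0.42, 0.29 and 0.03 with IL-15, and -0.13, -0.11 and -0.22 with IL-21. Its difference was -0.41 ± 0.18 (SE) between IL-21 and IL-2, with a limma adjusted p of 0.81, or 0.266 with the replicate block. Between IL-21 and IL-15 it was -0.40 ± 0.18 (SE), with a limma adjusted p of 0.882, or 0.312 with the block. Ndufaf7, a methyltransferase that acts in the assembly of complex I, gave 0.48, 0.42 and 0.15 with IL-2 and -0.37, -0.03 and -0.55 with IL-21. Its difference between IL-21 and IL-2 was -0.67 ± 0.21 (SE), with a limma adjusted p of 0.51, or 0.103 with the block. Its 3 probes gave -1.05, -0.94 and -0.02 for this difference. These differences were thus tested and did not pass.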

How the results depend on the processing

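In the main setting 0 of the 88 genes were past the threshold. The replicate block gave 4 with IL-2 and 3 with IL-15, where 1.96% and 0.697% of all genes passed. A dye term gave 1 (Cox6a1) with IL-2 and 3 (Atp5e, Atp5j2 and Cox6a1) with IL-15, and probes fitted alone gave 1 probe with IL-2, of Ndufv3. The shares of all genes with the dye term, and of all probes fitted alone, are not given here, so these counts cannot be set against a background. The other comparisons had 0 under all 15 alternatives, and 0 passed wherever a replicate was left out. The median log2 ratio with IL-2 was 0.25 to 0.46 with a replicate left out and 0.00 with the sign of replicates 2 and 3 turned, against 0.30. With a replicate left out it was 0.09 (without replicate 1) to 0.39 (without replicate 3) with IL-15, -0.14 (without replicate 1) to 0.16 (without replicate 3) with IL-21, and -0.08 to 0.07 for IL-15 minus IL-2. The median of IL-21 minus IL-2 was -0.32 to -0.26 with a replicate left out, -0.43 without IL-2 replicate 3 alone and 0.15 with the sign turned. That of IL-21 minus IL-15 was -0.33 to -0.23 with a replicate left out, -0.16 over probes and 0.06 with the sign turned. Of the 194 probes, 77 read the single gene Sdha, and the median of these 77 for IL-21 minus IL-15 was 0.01. The cause of these shifts was not tested. Of 2256 values for 47 named genes under 12 alternatives, 2245 stayed short of the threshold, as in the main setting. Their direction was not always kept, since turning the sign of replicates 2 and 3 reversed some. The other 11 passed anew, 7 with the block and 4 with the dye term, while 0 did with the replicate as a random effect. The block changed no other call among these genes. Dim probes could not be set apart without intensities.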
